A study of Homo sapiens with 18 samples.

Results

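K562 cells that had been transduced with a lentivirus for dCas9 without a KRAB domain were compared with K562 cells that received no lentivirus. The members were chosen by the sample labels alone and make up 9 of the 18 RNA-seq libraries of the series: 6 dCas9 libraries in 2 groups of 3, and 3 libraries of untransduced cells. K562 is an established human erythroleukaemia line that carries the BCR-ABL1 fusion and expresses embryonic and fetal globins. Cells of the dCas9_CR4 group were transduced to express dCas9 and the guide RNA CR4, and cells of the dCas9_CR10 group dCas9 and the guide RNA CR10. Both guides are directed at HS2, an enhancer of the globin genes. Cells of the no_lentivirus group carried neither a transduced gene nor a guide. A further group of 3, KRAB_no_gRNA, expressed dCas9 fused to the KRAB repressor domain with no guide and served as a second lentiviral group. Per the labels, virus was added with 4 µg/ml polybrene, the vector conferred resistance to puromycin, and selection at 1 µg/ml of that drug began about 96 hours after transduction. The labels do not say whether untransduced cells saw polybrene or puromycin, whether selected cells were cloned, or which promoter drove dCas9. The virus, its cargo, the guide and the drug selection therefore cannot be told apart in this comparison, and the dCas9 transcript itself was not analysed here.

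dCas9 is a Cas9 whose nuclease sites are inactive, so that it binds the DNA its guide matches without cutting it. The KRAB domain, absent from these 2 dCas9 groups, recruits the corepressor TRIM28 and with it heterochromatin proteins. HS2 belongs to the locus control region upstream of the beta-like globin genes HBE1, HBG2, HBG1, HBD and HBB on chromosome 11. Erythroid genes are driven largely by GATA1, antiviral genes by interferon-regulated factors that bind the interferon-stimulated response element, and amino acid supply genes by ATF4. Lentiviral nucleic acids can be sensed by antiviral receptors, and puromycin ends translation early and is exported by the transporter ABCB1.

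Promoters are shown for 4 genes that differed between dCas9 and untransduced cells in all the library selections given below except the fit of the 9 compared libraries alone, which OAS3 alone of the 4 passed. Each is the 250 bases before the RefSeq transcript start in GRCh38.p14, read 5′ to 3′ on the gene's strand. The pair of erythroid promoters comes first, that of ALAS2 at chrX:55030978-55031227 on the minus strand and that of RHAG at chr6:49636840-49637089 on the minus strand. Capitals mark GATA motifs (AGATAA, or the same with T as its first letter, G as its last, or both, on either strand).
ALAS2: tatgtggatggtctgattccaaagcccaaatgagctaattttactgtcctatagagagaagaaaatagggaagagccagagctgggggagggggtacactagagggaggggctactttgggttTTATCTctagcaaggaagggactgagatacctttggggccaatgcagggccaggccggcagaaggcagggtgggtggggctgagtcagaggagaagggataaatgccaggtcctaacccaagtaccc
RHAG: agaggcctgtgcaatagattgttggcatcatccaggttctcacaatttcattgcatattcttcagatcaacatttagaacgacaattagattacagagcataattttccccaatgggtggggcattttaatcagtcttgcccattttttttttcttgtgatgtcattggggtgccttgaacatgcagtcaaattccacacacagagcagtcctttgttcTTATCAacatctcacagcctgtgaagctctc
The OAS3 promoter, at chr12:112938224-112938473 on the plus strand, is shown with 2 matches to the interferon-stimulated response element, searched on both strands as GAAA followed, after any 2 bases, by GAAA again.
OAS3: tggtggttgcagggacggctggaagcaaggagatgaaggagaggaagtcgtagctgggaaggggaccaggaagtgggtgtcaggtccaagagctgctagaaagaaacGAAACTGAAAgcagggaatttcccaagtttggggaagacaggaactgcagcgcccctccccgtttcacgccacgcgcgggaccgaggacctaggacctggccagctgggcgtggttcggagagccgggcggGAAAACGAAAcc
The IARS1 promoter, at chr9:92293698-92293947 on the minus strand, is shown with 1 match to the ATF4 element, searched as TGATGNAA on both strands.
IARS1: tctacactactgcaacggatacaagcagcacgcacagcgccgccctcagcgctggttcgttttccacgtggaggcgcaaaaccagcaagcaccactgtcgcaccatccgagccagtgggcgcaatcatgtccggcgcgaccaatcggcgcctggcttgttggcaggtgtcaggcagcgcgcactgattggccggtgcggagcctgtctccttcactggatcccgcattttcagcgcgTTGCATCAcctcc
Over 35116 RefSeq promoters of this length, 22.3% held a GATA motif, 3.02% the response element and 3.14% the ATF4 element. In the lists used below, a GATA motif was found in 13 of 22 red cell membrane promoters with an entry and in 2 of 10 haem synthesis promoters. The response element was found in 18 of 31 interferon response promoters, and the ATF4 element in 2 of 16 tRNA synthetase and 3 of 13 amino acid synthesis promoters. All 4 promoters shown hold a match, which other promoters read for genes named below did not all do. RHCE and TMOD1 had 0 GATA motifs, and IFI35 and IRF1 had 0 response elements. MARS1, ASS1, PHGDH and ATF5 had 0 ATF4 elements. RHD, IFIH1, TAP1, AARS1 and ASNS held 1 or more of the motif searched. A match is a description of these letters and not a bound site.

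The dCas9 libraries held 22805964 to 32364862 counts and the untransduced libraries 30561028 to 34032962. Levels are given as CPM, counts divided by the TMM-scaled library size, and differences as log2 of dCas9 over untransduced with a standard error (SE). All 14 K562 markers were present at 19.1 CPM or more in each of the 9 libraries. Of 20 markers of other cell types 14 stayed under 1 CPM, and EPCAM, COL1A2, LYZ, CD3D and COL1A1 were among those that did not. The untransduced libraries were not alike. Principal components of the 9 libraries were taken from the 2000 genes that varied most among them, above a count floor. On the first component, which held 70.5% of the variance of these genes, the untransduced libraries lay at -1.7, 47.2 and 15.3 (libraries 1, 2 and 3). The dCas9 libraries numbered 1 and 2 lay between -21.1 and -16.5, and those numbered 3 at 3.4 (CR4) and 13.2 (CR10). Counts are therefore also given without untransduced library 2, which leaves 2 untransduced libraries, and for a reduced selection, chosen after the data were seen, without that library and without the number 3 libraries of every lentiviral group. The reduced selection drops the dCas9 libraries that lay nearest the untransduced ones on the first component. A call there is a description and not separate support for a call lost without untransduced library 2. All gene lists below were drawn up with earlier results of these data known, so their counts and shares are descriptions.

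Of 14720 genes tested, 1704 differed between the 6 dCas9 and the 3 untransduced libraries at an adjusted p under 0.05 (11.6%), 732 higher in dCas9 (4.97%) and 972 lower (6.6%). Most differences were small. The median fold among these genes was 1.59, and 182 were higher and 244 lower by 2-fold or more. All 6 dCas9 libraries lay above all 3 untransduced libraries in 948 genes (6.44%) and below them in 995 (6.76%), and 1164 of the 1704 genes had no overlap in either direction. Untransduced library 2 was the highest of the 9 libraries in 852 of the 972 lower genes and the lowest in 520 of the 732 higher genes. The same was not counted over all genes tested, so whether this is particular to the called genes cannot be read from these counts. Without it 158 of 14885 genes passed (1.06%), 70 higher (0.47%) and 88 lower (0.591%), of which 153 were also among the 1704 in the same direction (8.98% of the 1704 and 96.8% of the 158). All 1702 of the 1704 genes that were still tested without it kept their direction. These genes were chosen in a fit that holds the same other libraries, so this was largely fixed in advance and is no test.

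The number of genes also moved with the other libraries. Without untransduced library 1 it was 2802, without untransduced library 3 it was 681, and without dCas9_CR4 library 2 it was 1086. In the reduced selection 1943 of 14601 genes passed (13.3%), 834 higher (5.71%) and 1109 lower (7.6%). Of 143 genes named by rule that passed with all libraries, 107 lost the call without untransduced library 2, and 75 of those 107 passed in the reduced selection. Leaving out the number 3 lentiviral libraries alone gave 3338 genes, so these 75 calls were not restored by a separate test. The shares of all genes to set beside the counts of members below are thus 11.6% with all libraries, 1.06% without untransduced library 2 and 13.3% in the reduced selection. When the spread was estimated from the 9 compared libraries alone rather than from all 18, 6 genes passed, namely ARGLU1, CD8A, COMTD1, ID3, JUND and OAS3, with 3420 at an unadjusted p under 0.05. Cells were transduced in triplicate per the design text, and the labels do not say whether the untransduced replicates were separate cultures. The p-values of the main fit rest on a spread between samples estimated per gene from all 18 libraries. They do not measure the spread of the 9 compared libraries alone, or that of the untransduced ones, which were not alike. Same-numbered dCas9_CR4 and dCas9_CR10 libraries deviated from their group means together (r = 0.74, 0.38 and 0.85 across genes for numbers 1, 2 and 3), and the fit counts these 6 libraries as independent.

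**Figure D1:**
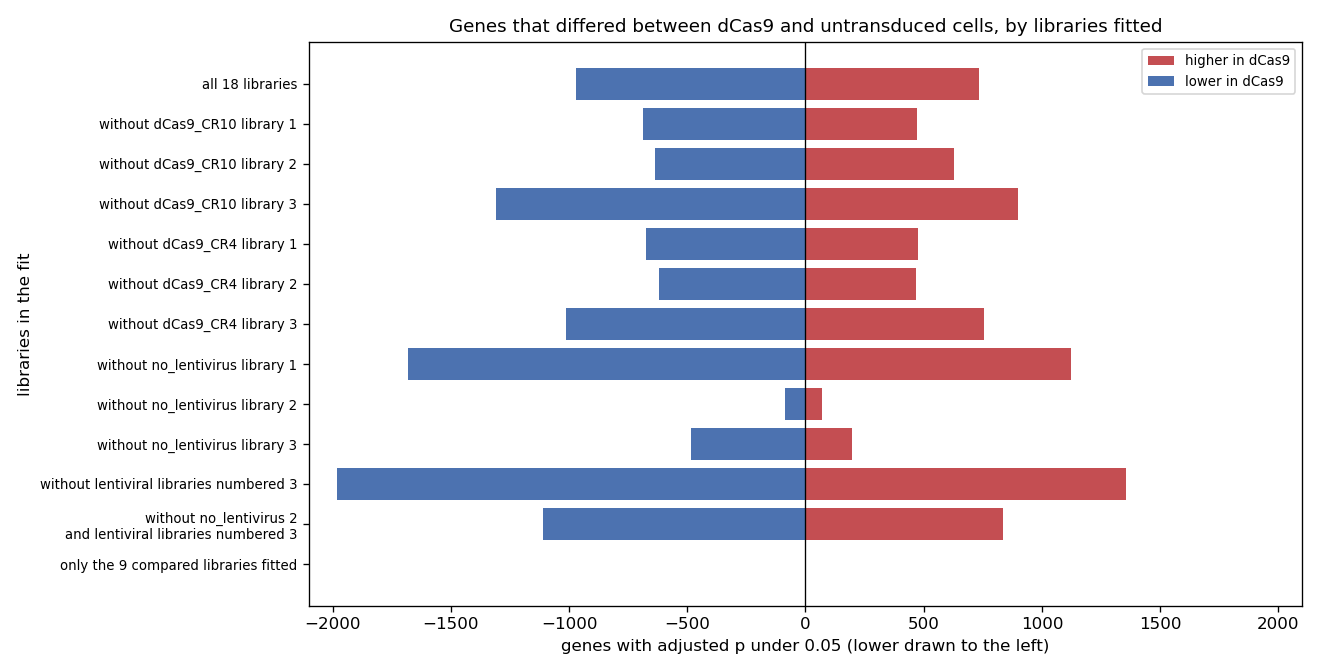
Number of genes with an adjusted p under 0.05 between dCas9 and untransduced cells (horizontal axis, lower genes drawn to the left) for each selection of libraries in the fit. All 18 libraries gave 732 higher and 972 lower genes, leaving out no_lentivirus library 2 gave 70 and 88, and the 9 compared libraries alone gave 4 and 2, bars too short to see at this scale.

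Of the beta-like globin genes, whose enhancer both guides are directed at, HBE1 alone passed the test. It encodes the embryonic epsilon chain. HBE1 was at 329, 402 and 346 CPM in the dCas9_CR4 libraries, 332, 425 and 386 CPM in the dCas9_CR10 libraries and 670, 547 and 595 CPM in the untransduced libraries. The groups did not overlap. HBE1 fell 1.63-fold (370.0 ± 40.0 CPM, SD, n = 6, against 604 ± 62.4 CPM, SD, n = 3; log2 difference -0.71, SE 0.11, adjusted p = 0.00322), and the difference was also found without untransduced library 2 (adjusted p = 0.0129). The fall was -0.75 with CR4 (adjusted p = 0.0181) and -0.66 with CR10 (adjusted p = 0.0173) on the log2 scale. In the guideless KRAB_no_gRNA libraries HBE1 was at 437, 468 and 467 CPM, between the other 2 ranges. The log2 difference of dCas9 from KRAB_no_gRNA was -0.31 (95% interval -0.55 to -0.06), which did not pass over all genes tested.

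The fetal gamma genes HBG1 and HBG2, near-identical copies whose reads may be divided arbitrarily, did not pass. HBG1 was at 662 to 847 CPM in the dCas9 and 936, 587 and 804 CPM in the untransduced libraries, with overlap (log2 difference -0.09, SE 0.14, adjusted p = 0.69). HBG2 gave -0.10 (SE 0.13, adjusted p = 0.678). The adult delta gene HBD, at 11.7 ± 4.92 CPM (SD, n = 6) in dCas9, gave -0.01 (SE 0.47). In the list of the beta globin cluster, 1 of 6 tested members was lower and none higher, and in the reduced selection HBE1 and the pseudogene HBBP1 were lower.

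In the alpha globin cluster on chromosome 16, HBQ1, which encodes the minor theta chain, rose 1.62-fold, from 6.37, 6.57 and 5.81 CPM in untransduced cells to between 8.12 and 12.8 CPM (adjusted p = 0.0245; 0.106 without untransduced library 2 and 0.0463 in the reduced selection). In a fit that centres each library on the GC share of transcripts, the log2 difference of HBQ1 went from 0.70 to 0.28 and did not pass (adjusted p = 0.279), and no member of the cluster was called there. The embryonic zeta gene HBZ was at 288, 343 and 224 CPM with CR4, 278, 281 and 168 CPM with CR10 and 207, 85.8 and 210 CPM in untransduced cells, and did not pass with all libraries (log2 difference 0.65, SE 0.27, adjusted p = 0.124), though it did in the reduced selection (0.48). HBA1 and HBA2, the near-identical alpha genes, gave 0.24 each (adjusted p = 0.372 and 0.413). Neighbours of the beta cluster on the short arm of chromosome 11 were also read, 27 tested: 6 were lower and none higher (22.2%), with 1 lower without untransduced library 2 and 5 in the reduced selection. The 1 gene was ILK, an integrin-linked scaffold kinase, at 73.1 to 88.5 CPM in dCas9 and 118, 149 and 120 CPM in untransduced cells (log2 difference -0.72, SE 0.11, adjusted p = 0.00322). The olfactory receptor genes OR51B2 and OR51B4 and TRIM6 near the cluster were highest in untransduced library 2 and lost the call when it alone was left out, and of these TRIM6 passed in the reduced selection.

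Of 14 haem synthesis genes tested, 5 were lower in dCas9 cells, none was higher and 9 did not pass (35.7% called, against 11.6% of all genes). The median log2 difference was -0.25. Lower members numbered 2 without untransduced library 2, ALAS2 included, and 5 in the reduced selection. ALAS2, the erythroid first enzyme of the pathway, was at 35.9, 41.2 and 33.2 CPM with CR4, 35.1, 32.0 and 30.2 CPM with CR10 and 59.8, 61.0 and 60.0 CPM in untransduced cells. No libraries overlapped, and ALAS2 fell 1.74-fold (34.6 ± 3.83 CPM, SD, n = 6, against 60.3 ± 0.617 CPM, SD, n = 3; adjusted p = 0.00322). UROD, the fifth enzyme, fell by 0.43 on the log2 scale (SE 0.10, adjusted p = 0.0151; 0.0575 without untransduced library 2 and 0.0141 in the reduced selection). PPOX, the enzyme before the last, fell by 0.67 on the log2 scale, a call that was lost without that library and found in the reduced selection (adjusted p = 0.00238).

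Of 29 surface and skeleton genes of the red cell tested, 8 were lower, 1 was higher and 20 did not pass (31% called, against 11.6%). Without untransduced library 2, 6 were lower and none higher, against 0.591% of all genes lower there, and 8 were lower in the reduced selection, against 7.6%. RHCE and RHD, closely related Rh antigen genes whose reads may be shared, were at 11.7 to 16.8 CPM and 15.9 to 20.4 CPM in dCas9 libraries. In untransduced libraries RHCE was at 23.3, 29.5 and 27.9 CPM and RHD at 29.4, 23.3 and 27.9 CPM. Both ranges were apart (log2 difference -0.92, SE 0.13 for RHCE and -0.61, SE 0.12 for RHD; adjusted p = 0.00322 and 0.00946). RHAG, the Rh-associated glycoprotein, fell from 721, 649 and 691 CPM to between 454 and 546 CPM (log2 difference -0.46, SE 0.09, adjusted p = 0.00889). TMOD1, the tropomodulin that caps actin at the red cell skeleton, was at 122 to 129 CPM in all 6 dCas9 libraries and 162, 195 and 173 CPM in untransduced cells (log2 difference -0.49, SE 0.08, adjusted p = 0.00456).

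The Kx antigen gene XK was at 138, 244 and 165 CPM in untransduced cells and 90.5 to 117 CPM in dCas9 cells (log2 difference -0.80, SE 0.14, adjusted p = 0.00484). DMTN, which encodes the actin-binding protein dematin, was at 85.8, 51.0 and 65.7 CPM against 30.3 to 48.2 CPM (log2 difference -0.77, SE 0.17, adjusted p = 0.0119). GYPC fell by 0.55 and GYPE by 0.49 on the log2 scale, and both were lost without untransduced library 2, GYPC passing in the reduced selection. Carbonic anhydrase 1, CA1, was the member that rose (log2 difference 0.62, SE 0.16, adjusted p = 0.0245; 0.145 without untransduced library 2 and 0.051 in the reduced selection). In bulk RNA, fewer cells of a more mature kind and less RNA per cell cannot be told apart.

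Of 22 erythroid transcription factors tested, 4 were lower and 2 higher (27.3%), 2 and 1 without untransduced library 2, and 3 and 4 in the reduced selection. GATA1, the zinc finger factor that binds the GATA motif, fell from 292, 260 and 285 CPM to 193, 240 and 219 CPM with CR4 and 181, 207 and 198 CPM with CR10. The ranges did not overlap (1.35-fold, log2 difference -0.44, SE 0.10, adjusted p = 0.0119; 0.0363 without untransduced library 2). ZBTB7A, a repressor of the gamma globin genes also known as LRF, rose from 54.8, 28.0 and 44.1 CPM to between 71.2 and 93.7 CPM (1.92-fold, log2 difference 0.94, SE 0.17, adjusted p = 0.0058). GFI1B, BACH1 and EPAS1 fell and TCF3 rose, and all 4 lost the call when untransduced library 2 alone was left out, GFI1B and TCF3 passing in the reduced selection. The log2 difference of EPAS1 went from -1.22 to -0.29 without that library, and TCF3 had an adjusted p of 0.0511 in the GC-centred fit. The other factors with a level in both groups, such as KLF1 at 112 ± 19.9 CPM (SD, n = 6) and 98.2 ± 21.7 CPM (SD, n = 3), did not pass (adjusted p = 0.497).

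Of 15 iron genes 2 were lower and none higher (13.3%), with 3 lower and 1 higher in the reduced selection. NCOA4, the receptor that delivers ferritin to autophagy, was at 376 to 456 CPM in dCas9 cells and 534, 803 and 656 CPM in untransduced cells (log2 difference -0.69, SE 0.12, adjusted p = 0.00456), and passed without untransduced library 2. The ferric reductase CYBRD1 fell by 0.40 on the log2 scale, was lost without it and passed in the reduced selection. The transferrin receptor TFRC, which was lowest in untransduced library 2, gave 0.48 (SE 0.28, adjusted p = 0.275).

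**Figure D2:**
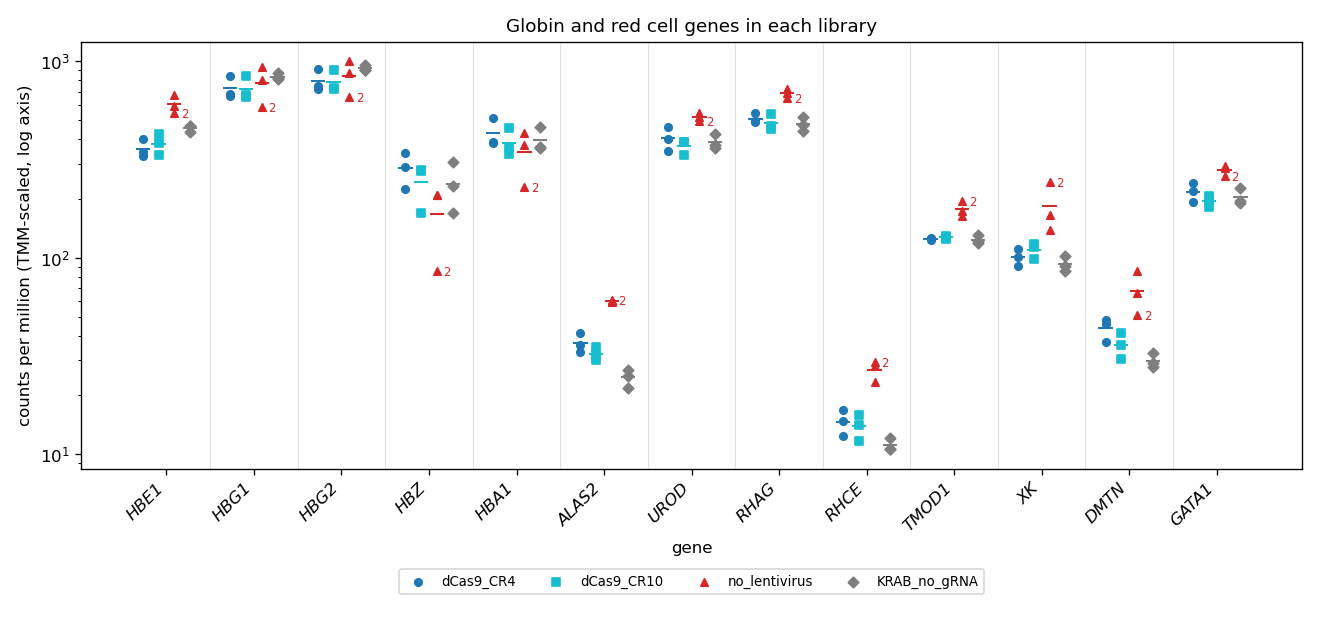
Level in CPM on a log axis of globin and red cell genes in each library of dCas9_CR4, dCas9_CR10, no_lentivirus and KRAB_no_gRNA, with a short line at each group mean and the number 2 beside no_lentivirus library 2. For HBE1, ALAS2, RHCE and TMOD1 the 6 dCas9 libraries lie below all 3 untransduced libraries, while HBG1, HBG2 and HBA1 overlap.

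The difference with the smallest adjusted p, shared by 3 genes, was a rise of JUND and falls of ID3 and OAS3. JUND, a subunit of the AP-1 transcription factor, was at 129, 145 and 143 CPM with CR4, 143, 112 and 108 CPM with CR10 and 61.9, 34.4 and 53.5 CPM in untransduced cells. It rose 2.6-fold (log2 difference 1.38, SE 0.17, adjusted p = 0.000993), with no overlap, and was among the 6 genes that passed in the 9 compared libraries alone. The log2 difference of JUND was smaller in the GC-centred fit, at 0.996, and passed (adjusted p = 0.000512). JUNB, a further AP-1 subunit, was at 43.5 to 116 CPM and 23.3 to 53.6 CPM and overlapped (log2 difference 1.12, SE 0.33, adjusted p = 0.0371). EGR1, an early growth response factor, rose from 70.6, 70.6 and 55.9 CPM to between 91.2 and 232 CPM (log2 difference 0.94, SE 0.28, adjusted p = 0.0412). ARGLU1, a splicing-linked factor, and COMTD1, a methyltransferase-domain gene, were also among those 6. ARGLU1 was at 25.9 to 33.2 CPM in dCas9 cells and 14, 8.93 and 13 CPM in untransduced cells, and COMTD1 at 17.7 to 21.9 CPM and 10.1, 7.25 and 8.65 CPM, neither with overlap (log2 difference 1.26 and 1.15, adjusted p = 0.00101 each). The calls of JUNB and EGR1 rested on several libraries: with 1 of the 9 libraries left out at a time, JUNB passed in 3 of 9 fits and EGR1 in 1 of 9. Without untransduced library 2 their log2 differences were 0.87 and 0.99 (adjusted p = 0.224 and 0.149), and both passed in the reduced selection (adjusted p = 0.0041 and 0.0208). JUNB did not pass in the GC-centred fit (0.73, adjusted p = 0.0896). Of 28 immediate early genes tested, 3 were higher and 1, KLF10, lower (14.3%), 1 was higher without untransduced library 2, and 5 were higher and 3 lower in the reduced selection. KLF10 went from -1.17 to -0.48 without that library.

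ID3 encodes an inhibitor of helix-loop-helix factors and is a target of SMAD signalling. It was at 6.01, 12.2 and 5.79 CPM with CR4, 4.83, 8.12 and 5.38 CPM with CR10 and 27.5, 30.1 and 21.2 CPM in untransduced cells. The dCas9 libraries all lay below the untransduced ones, and the fall was 3.76-fold (log2 difference -1.91, SE 0.22, adjusted p = 0.000993). ID2 moved the same way, from 7.95, 8.43 and 8.32 CPM to between 2.94 and 6.06 CPM (log2 difference -0.90, SE 0.20, adjusted p = 0.0127; 0.0763 without untransduced library 2). ID1, their close relative, did not pass (log2 difference 0.41, SE 0.29, adjusted p = 0.37). Of 13 ID and SMAD feedback genes tested, 4 were lower and 1 higher (38.5%, against 11.6%). ID3 alone passed without untransduced library 2, where 1.06% of all genes did, and ID3, ID2, LTBP1 and SKI passed in the reduced selection. The other lower members were SMAD7, an inhibitory SMAD whose log2 difference went from -1.45 to -0.84 without untransduced library 2, and LTBP1, which binds latent TGF-beta, at 83.7 to 115 CPM against 141, 148 and 162 CPM. SKI, a SMAD corepressor, rose 1.96-fold (log2 difference 0.97, SE 0.25, adjusted p = 0.0204).

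Members of the interferon response and antigen presentation lists that passed were lower in the transduced cells. MAVS and EIF2AK2, of a separate list of antiviral sensing and restriction given below, passed and were higher. Of 29 interferon response genes tested, none was higher and 5 were lower (17.2%, against 11.6%), with 1 lower without untransduced library 2 and 5 lower in the reduced selection. The median log2 difference was -0.34. OAS3, an oligoadenylate synthetase that senses double-stranded RNA, was at 3.92, 3.14 and 4.79 CPM with CR4, 4.96, 2.96 and 4.95 CPM with CR10 and 9.83, 19.5 and 13.3 CPM in untransduced cells. It fell 3.44-fold without overlap (log2 difference -1.78, SE 0.21, adjusted p = 0.000993; 0.00739 without untransduced library 2). The RNA helicase sensor IFIH1 fell from 3.40, 7.81 and 4.62 CPM to between 1.44 and 2.29 CPM (log2 difference -1.49, SE 0.28, adjusted p = 0.00667), and USP18, which removes ISG15, by 1.36 (SE 0.32, adjusted p = 0.0163). Both lost the call without untransduced library 2, as did IFI35 and IRF1. IFIH1, USP18 and IFI35 passed in the reduced selection, and IRF1 did not. ISG15 itself, at 7.78 ± 1.64 CPM (SD, n = 6) and 8.52 ± 1.64 CPM (SD, n = 3), did not pass (adjusted p = 0.688).

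Of 12 antigen presentation genes tested, 4 were lower and none higher (33.3%), with 1 lower without untransduced library 2 and 5 in the reduced selection (median log2 difference -0.58 there and with all libraries). TAP1, which carries peptides into the endoplasmic reticulum, was at 15.6, 18.2 and 14.8 CPM with CR4, 18.3, 14.2 and 15.1 CPM with CR10 and 26.3, 31.3 and 26.1 CPM in untransduced cells. It fell 1.74-fold with no overlap (log2 difference -0.80, SE 0.13, adjusted p = 0.0035). HLA-C and HLA-B, closely related class I genes, were at 3.38 to 8.25 CPM and 0.914 to 2.22 CPM in dCas9 cells. In untransduced cells HLA-C was at 11.1, 15.8 and 12 CPM and HLA-B at 2.61, 4.59 and 2.91 CPM, with no overlap in either gene. Neither passed without library 2 (log2 differences -1.06 and -1.15), and both passed in the reduced selection (-1.48 and -1.52, adjusted p = 0.000288 and 0.00325). Beta-2 microglobulin, B2M, did not pass (log2 difference -0.14, SE 0.15, adjusted p = 0.56). Among 22 genes of antiviral sensing and restriction (13.6% called), the adaptor MAVS (log2 difference 0.57, adjusted p = 0.0256) and the RNA-activated kinase EIF2AK2 (0.43, adjusted p = 0.0399) rose and APOBEC3G fell (-0.87, adjusted p = 0.0204), and none of these passed without untransduced library 2, APOBEC3G doing so in the reduced selection (adjusted p = 0.00615).

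Drug efflux genes, read because puromycin was used for selection, were lower in dCas9 cells in 4 of 6 tested members and higher in none (66.7%), with ABCB1 alone lower without untransduced library 2 and in the reduced selection. ABCB1, the multidrug transporter, was at 0.677 to 1.22 CPM in dCas9 cells and 2.43, 4.22 and 3.1 CPM in untransduced cells, from 16 to 136 counts per library. It fell 3.62-fold with no overlap (log2 difference -1.86, SE 0.30, adjusted p = 0.00322; 0.0308 without untransduced library 2). ABCG2 fell by 1.22, ABCC4 by 0.54 and ABCB6 by 0.29 on the log2 scale. Of 23 p53 targets, 3 were lower and 1 higher (17.4%), with 1 lower without untransduced library 2 and 5 in the reduced selection. CDKN1A, the cell cycle inhibitor p21, was at 10.5 to 16.9 CPM against 21.8, 34.2 and 24.4 CPM and fell 2.1-fold (log2 difference -1.07, SE 0.19, adjusted p = 0.00497), with an adjusted p of 0.0493 without untransduced library 2. TP53INP1 and BTG2 fell and BAX rose, and these 3 lost the call without that library, where TP53INP1 went from -1.55 to -0.74. TP53INP1 passed in the reduced selection (-1.27).

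**Figure D3:**
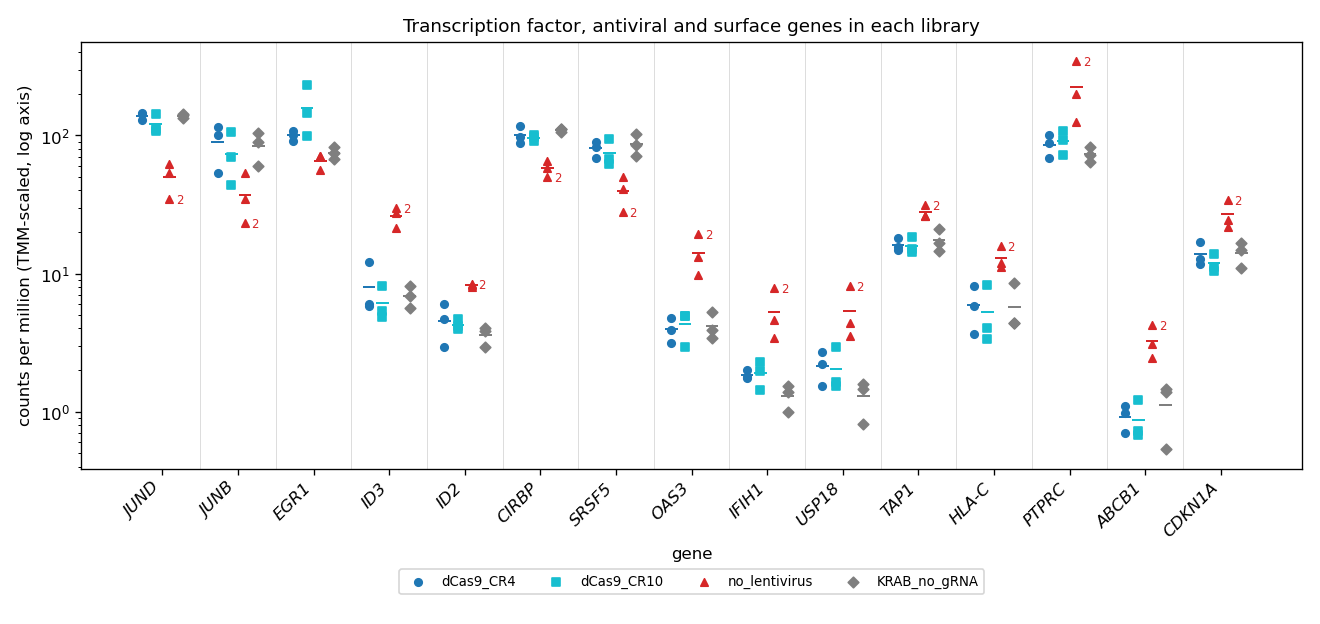
Level in CPM on a log axis of transcription factor, antiviral, antigen presentation, surface and drug efflux genes in each library of dCas9_CR4, dCas9_CR10, no_lentivirus and KRAB_no_gRNA, with a short line at each group mean and the number 2 beside no_lentivirus library 2. JUND lies higher and ID3, OAS3, TAP1 and ABCB1 lower in all 6 dCas9 libraries than in any untransduced library, and the KRAB_no_gRNA libraries of these 5 genes lie on the same side of the untransduced ones.

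The counts of lower genes of amino acid supply and protein folding moved with the selection of libraries. Of 20 cytosolic tRNA synthetases tested, which charge tRNAs with amino acids, 11 were lower and none higher (55%, against 11.6%), with a median log2 difference of -0.53. Without untransduced library 2, 1 was lower and the median was -0.30, and in the reduced selection 8 were lower and the median was -0.40. IARS1, the isoleucine enzyme, was the member that passed each time. It was at 733, 610 and 686 CPM with CR4, 722, 656 and 695 CPM with CR10 and 851, 1570 and 1131 CPM in untransduced cells, with no overlap (log2 difference -0.79, SE 0.14, adjusted p = 0.00497). MARS1, the methionine enzyme, was at 359 to 505 CPM and 535, 1040 and 665 CPM, and AARS1, the alanine enzyme, at 343 to 681 CPM and 599, 1420 and 828 CPM. Neither passed without untransduced library 2, and both did in the reduced selection (adjusted p = 0.00108 and 0.000641).

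Of 18 genes for serine and other amino acid synthesis, 5 were lower and none higher (27.8%), 0 lower without untransduced library 2 and 9 lower in the reduced selection. The median log2 difference was -0.45, -0.21 and -0.42 in these 3 fits. PHGDH, the first enzyme of serine synthesis, was at 26.8, 33.4 and 57.3 CPM with CR4, 34.9, 35.2 and 102 CPM with CR10 and 52.7, 464 and 175 CPM in untransduced cells. Asparagine synthetase, ASNS, was at 259 to 598 CPM in dCas9 cells and 299, 1517 and 624 CPM in untransduced cells. ASS1, of arginine synthesis, was at 1.74 to 10.3 CPM and 3.34, 88.8 and 28.7 CPM. In all 3 genes the number 3 dCas9 libraries were the highest of their groups, and untransduced library 1 overlapped the dCas9 range. The fitted falls were 4.87-fold for PHGDH (adjusted p = 0.0127), 2.39-fold for ASNS (adjusted p = 0.0369) and 11.2-fold for ASS1 (adjusted p = 0.0078). On the log2 scale these were -2.28, -1.26 and -3.49, and without untransduced library 2 they were -1.27, -0.44 and -2.16, none passing (adjusted p = 0.208, 0.551 and 0.114). In the reduced selection they were -1.85, -0.83 and -2.99, all passing (adjusted p = 0.000835, 0.00896 and 0.00117). ASNS had an adjusted p of 0.0501 in the GC-centred fit.

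The integrated stress response list, whose members report ATF4 activity, had 1 lower member of 18 tested (5.56%) and a median log2 difference of -0.80. None passed without untransduced library 2, where the median was -0.06. In the reduced selection 9 were lower and 1 higher, with a median of -0.58. Without the number 3 lentiviral libraries alone 15 were lower, with a median of -1.47. In that fit 1983 of all 14770 genes tested were lower and 1355 higher, the counts to set beside those of members in this paragraph. ATF5, a transcription factor of that response, was the member that was lower with all libraries, at 75.3 to 121 CPM in dCas9 cells and 66.5, 460 and 178 CPM in untransduced cells. Its log2 difference went from -1.37 to -0.44 without untransduced library 2 and was -0.53 in the reduced selection, passing in neither. Of 19 endoplasmic reticulum chaperone genes 6 were lower and none higher (31.6%). None was lower without untransduced library 2, 4 were in the reduced selection, and 8 were without the number 3 lentiviral libraries alone. HSPA5, the main chaperone there, was at 595 to 749 CPM and 693, 1642 and 989 CPM (log2 difference -0.80, SE 0.17, adjusted p = 0.0115), and HYOU1, its co-chaperone, at 356 to 484 CPM and 503, 1017 and 641 CPM, and both passed in the reduced selection (adjusted p = 0.0184 and 0.0392). Of 13 amino acid transporters 2 were lower, SLC6A9 and SLC1A4 (15.4%), 0 without untransduced library 2 and 3 in the reduced selection, and SLC6A9 went from -1.18 to -0.53 without that library. Among 15 heat shock genes 2 rose (13.3%), HSPB1 (log2 difference 0.71, adjusted p = 0.0326) and HSPE1 (0.96, adjusted p = 0.0467), both lowest in untransduced library 2. Neither passed without it, and both did in the reduced selection. HSPB1 did not pass in the GC-centred fit (0.35, adjusted p = 0.195).

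**Figure D4:**
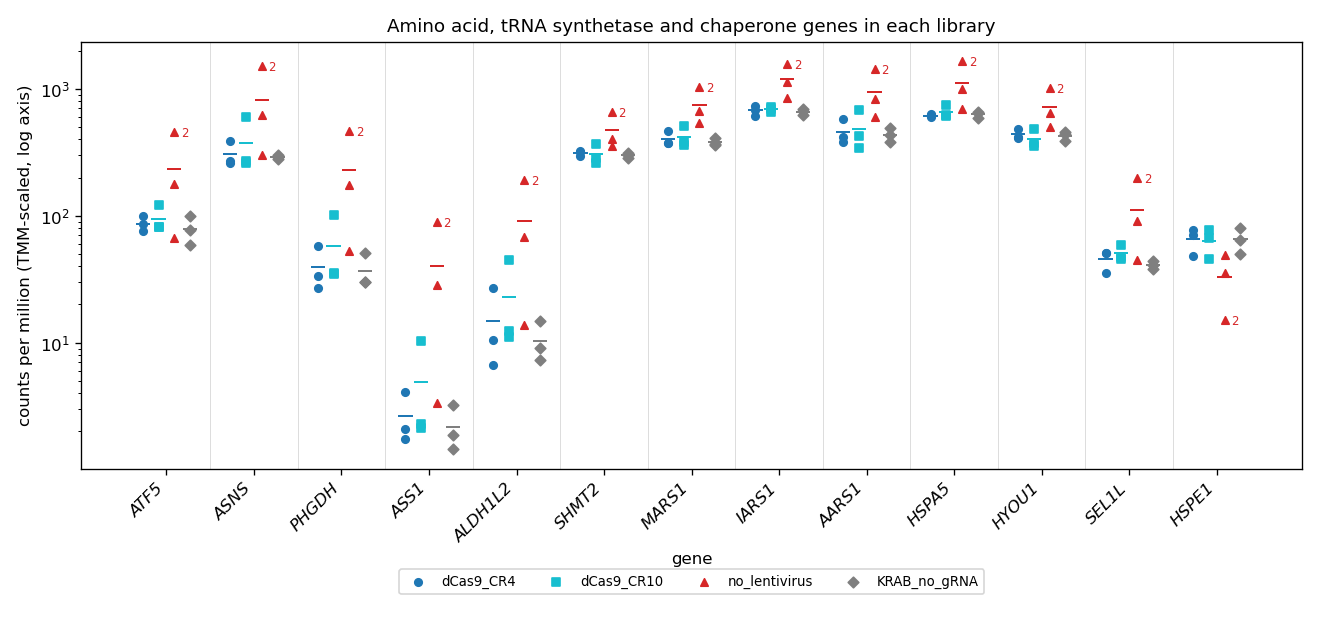
Level in CPM on a log axis of amino acid, tRNA synthetase and chaperone genes in each library of dCas9_CR4, dCas9_CR10, no_lentivirus and KRAB_no_gRNA, with a short line at each group mean. For PHGDH, ASNS and ASS1 no_lentivirus library 2 is far above and library 1 within or near the dCas9 range.

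Secreted peptide precursors gave 4 higher and 1 lower of 7 tested (71.4%, against 11.6%), 3 higher and 1 lower without untransduced library 2, and 5 higher and 1 lower in the reduced selection. Neuropeptide W, NPW, was at 1.51 to 2.30 CPM in dCas9 cells and 0.303, 0.558 and 0.462 CPM in untransduced cells, from 10 to 72 counts per library. It rose 4.42-fold with no overlap (log2 difference 2.14, SE 0.32, adjusted p = 0.00322). VGF, a nerve growth factor induced precursor, rose from 2.49, 0.806 and 1.72 CPM to between 3.38 and 6.92 CPM (log2 difference 1.69, SE 0.33, adjusted p = 0.00755; 0.0499 without untransduced library 2). Galanin, GAL, rose from 58.0, 23.2 and 41.8 CPM to between 59.8 and 112 CPM, lost the call without that library and passed in the reduced selection (adjusted p = 0.00155), with an adjusted p of 0.0524 in the GC-centred fit. PCSK1N, which rose, rests on 0 to 16 counts per library, and its log2 difference went from 2.54 to 3.44 without untransduced library 2. Secretogranin 3, SCG3, was the lower one, at 57.6 to 85.3 CPM against 123, 241 and 162 CPM (2.49-fold, log2 difference -1.31, SE 0.18, adjusted p = 0.00197).

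CD8A, which encodes a T cell coreceptor chain, had 0 counts in each of the 3 untransduced libraries and 10 to 58 counts in each dCas9 library. Its level was 1.71, 0.976 and 0.42 CPM with CR4 and 1.89, 0.931 and 1.72 CPM with CR10, on average at least 12.9-fold higher than the level that 3 counts per untransduced library would give. Every count was even, and a fragment is taken as 2 counts. That floor is thus under 2 fragments, and a higher floor would give a smaller fold. The KRAB_no_gRNA libraries held 0.649, 0.38 and 0.845 CPM. CD8A passed in the fit of all libraries (adjusted p = 0.00322), without untransduced library 2 (0.0217) and in the 9 compared libraries alone (0.0479). The T cell markers CD3E and CD4 stayed under 1 CPM in all 9 libraries, and CD3D was at 4.05 to 10.6 CPM over the 9 libraries. Of 13 myeloid and lymphoid genes tested, 2 were higher and 2 lower (30.8%), 1 and 1 without untransduced library 2, and 2 and 4 in the reduced selection. PTPRC, the pan-leukocyte phosphatase CD45, was at 68.9 to 108 CPM in dCas9 cells and 125, 344 and 200 CPM in untransduced cells, and fell 2.52-fold (log2 difference -1.34, SE 0.22, adjusted p = 0.00322; 0.032 without untransduced library 2).

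Of 12 megakaryocyte genes, 3 were lower and none higher (25%), with 1 lower without untransduced library 2 and 5 in the reduced selection. TUBB1, the platelet beta tubulin, was at 13.2 to 17.2 CPM in dCas9 cells and 40.7, 14.3 and 39.6 CPM in untransduced cells. Here untransduced library 2 lay within the dCas9 range, and the adjusted p went from 0.00878 to 0.000173 without it. The integrin subunits ITGA2B and ITGB3, which form the fibrinogen receptor, fell by 1.65 and 0.84 on the log2 scale. Without untransduced library 2 the differences were -1.29 and -0.94 and did not pass, and in the reduced selection they were -1.99 and -0.999 and passed (adjusted p = 5.04e-05 and 0.0189). Fibronectin, FN1, was the lower member of 10 epithelial and mesenchymal genes, at 46.7 to 85.2 CPM against 53.1, 308 and 125 CPM, and its log2 difference went from -1.30 to -0.44 without untransduced library 2.

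Among the 15 largest rises at a mean of 1 CPM or more without overlap were AMH, FEV, C19orf81, FJX1, LIME1, MAB21L3, TPM2, CCDC78, EME2, NPW and VGF, and 4 transcripts without a coding name or with near-identical copies: LOC100132062, NR_028327, LOC100190986 and NR_040097. AMH, the anti-Müllerian hormone, was at 8.61, 8.16 and 5.46 CPM with CR4, 8.55, 3.81 and 6.67 CPM with CR10 and 1.09, 2.11 and 2.31 CPM in untransduced cells (3.74-fold, adjusted p = 0.00442; 0.0248 without untransduced library 2). FEV, an ETS family factor, rose from 0.789, 1.05 and 0.661 CPM to between 1.76 and 3.72 CPM (3.16-fold, adjusted p = 0.00442). C19orf81 rose 3.22-fold and also passed without untransduced library 2, as did NPW, VGF, AMH and FEV. CCDC78 (8.71-fold) and EME2 (6.07-fold) had the largest ratios, from under 0.6 CPM in each untransduced library, and were lost without untransduced library 2. All 15 rises passed in the reduced selection. In the GC-centred fit the log2 differences of AMH, FEV and C19orf81 went from 1.90, 1.66 and 1.69 to 1.44, 1.23 and 1.29, all passing. FJX1 stayed at 2.11 there, and MAB21L3 went from 1.71 to 1.75.

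The 15 largest falls were RASGRP3, DEPP1, RAD21L1, PARD3B, TRPV6, PRSS2, ID3, ABCB1, BCAS3, OAS3, NNMT, OPTN, GIMAP2, ITGA2B and CD226. NNMT, which methylates nicotinamide, was at 2.03, 3.28 and 3.02 CPM with CR4, 2.02, 3.05 and 5.31 CPM with CR10 and 9.95, 11.7 and 9.78 CPM in untransduced cells. The 3 untransduced libraries agreed closely here and lay above all dCas9 libraries (3.38-fold, log2 difference -1.76, SE 0.28, adjusted p = 0.00322). RASGRP3, an activator of RAS, was at 0.42 to 0.886 CPM against 1.09, 11.5 and 3.17 CPM, and PARD3B, a polarity protein, at 0.976 to 2.72 CPM against 3.94, 15.6 and 6.87 CPM. Of the 15, RASGRP3, PARD3B, ID3, ABCB1, OAS3 and NNMT passed without untransduced library 2, and all 15 in the reduced selection. The fold of 9 of the 15 shrank by over 1.5 times without that library, to log2 differences of -1.93 to -0.98. RASGRP3 went from -3.03 to -1.73 and PARD3B from -2.24 to -1.54.

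Of 14 KRAB corepressor and heterochromatin genes tested, 1 was higher and none lower (7.14%), with all libraries, without untransduced library 2 and in the reduced selection. CBX3, the heterochromatin protein HP1 gamma, was at 250, 265 and 215 CPM with CR4, 253, 298 and 255 CPM with CR10 and 178, 137 and 152 CPM in untransduced cells (1.64-fold, log2 difference 0.72, SE 0.12, adjusted p = 0.00393). TRIM28, the corepressor that KRAB binds, was at 915 ± 116 CPM (SD, n = 6) and 952 ± 177 CPM (SD, n = 3) and did not pass (log2 difference -0.06, SE 0.13). Of 10 nuclear retained and cold inducible transcripts, 2 were higher (20%), and 2 in the reduced selection. CIRBP, a cold-inducible RNA-binding protein, rose from 65.5, 50.4 and 57.7 CPM to between 88.8 and 117 CPM (1.7-fold, log2 difference 0.77, SE 0.12, adjusted p = 0.00322; 0.0217 without untransduced library 2). The splicing factor SRSF5 rose 1.97-fold, lost the call without that library (adjusted p = 0.0673) and passed in the reduced selection (0.00212).

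Of 19 replication-dependent histone genes 3 were higher, H2BC11, H2BC5 and H2AC20 (15.8%), with a median log2 difference of 0.33 for the list. Their reads may come from near-identical copies, none passed without untransduced library 2, and H2BC11 alone passed in the reduced selection. H2AC20 had an adjusted p of 0.0577 in the GC-centred fit. H2BC11 was at 14.0 to 19.5 CPM in dCas9 cells and 9.59, 9.49 and 8.92 CPM in untransduced cells (1.71-fold, adjusted p = 0.00999; 0.0592 without untransduced library 2). Among 50 ribosomal protein genes 6 were higher and 3 lower (18%), 1 was higher without untransduced library 2 and 3 in the reduced selection. RPL22 was the 1 gene, at 318 to 404 CPM and 243, 319 and 241 CPM (log2 difference 0.43, SE 0.11, adjusted p = 0.0256; 0.0303 without untransduced library 2), and passed in 5 of 9 fits that left out 1 library.

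The remaining lists held few called members. S phase genes gave 2 lower of 25 (8%), CDC45 and RRM1, and M phase genes 1 lower of 24 (4.17%), AURKB. Hypoxia and glycolysis genes gave 3 lower of 36 (8.33%), fatty acid synthesis 2 lower of 16 (12.5%), and BCR-ABL and STAT5 signalling 4 lower of 20 (20%), among them the STAT5 feedback genes CISH and SOCS2. NRF2 targets gave 2 higher, NQO1 and TXN, and 1 lower, PGD, of 17 (17.6%). None of these passed without untransduced library 2. In the reduced selection 3 S phase, 2 M phase, 5 hypoxia and glycolysis and 6 fatty acid synthesis genes were lower and none higher, and signalling genes gave 4 lower and 2 higher and NRF2 targets 1 lower and 1 higher. Of 26 sterol synthesis genes 0 passed in edgeR and 0 in DESeq2 with all libraries, and 8 were lower in the reduced selection, with a median log2 difference of -0.28.

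**Figure D5:**
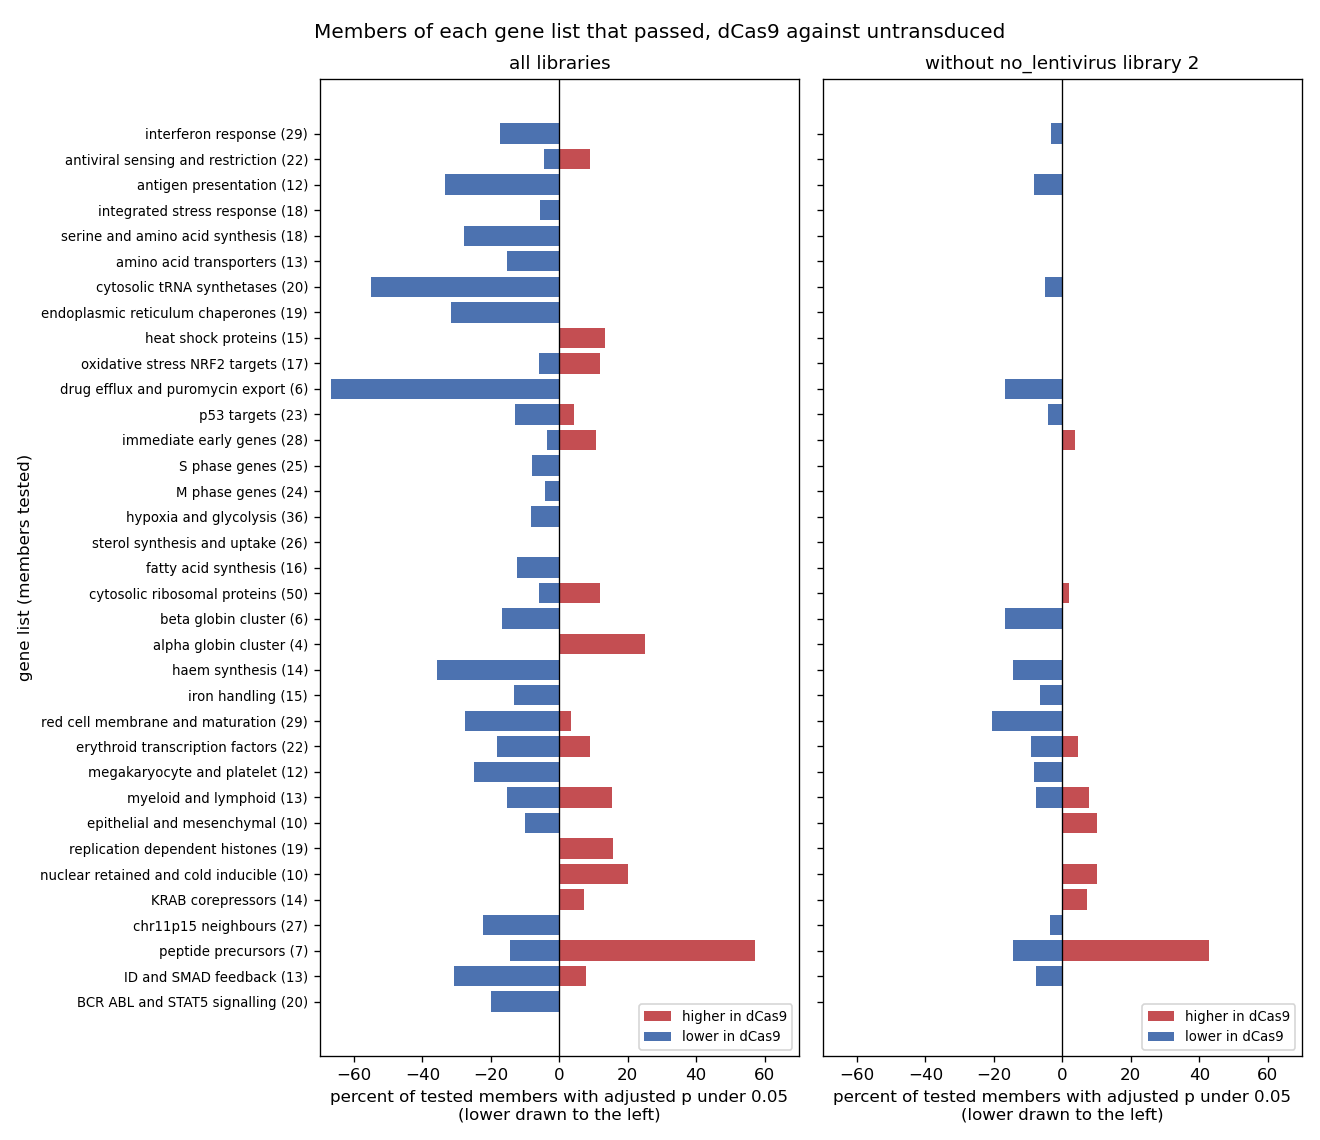
Percent of the tested members of each gene list (number tested in parentheses) with an adjusted p under 0.05, higher in dCas9 to the right and lower to the left, with all libraries and without no_lentivirus library 2. With all libraries 11 of 20 tRNA synthetases and 8 of 29 red cell membrane genes are lower, and without library 2 they are 1 and 6.

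Taken by guide, 624 genes (4.24%) differed between dCas9_CR4 and untransduced cells, 320 higher (2.17%) and 304 lower (2.07%), and 512 (3.48%) between dCas9_CR10 and untransduced cells, 237 higher (1.61%) and 275 lower (1.87%). Both comparisons use the same 3 untransduced libraries. JUND rose by 1.48 with CR4 and 1.28 with CR10 on the log2 scale (adjusted p = 0.00446 and 0.00728), and ID3 gave -1.71 and -2.11 (adjusted p = 0.0137 and 0.00728). ALAS2 gave -0.71 and -0.89 (adjusted p = 0.0244 and 0.00928). EGR1 was the least alike of these, at 91.2, 108 and 102 CPM with CR4 and 232, 146 and 99.5 CPM with CR10, and reached the threshold with CR10 (adjusted p = 0.039) and not with CR4 (adjusted p = 0.251). The difference between the guides, -0.67 (95% interval -1.35 to 0.02), was not called.

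No gene differed between the 2 dCas9 groups over all genes tested by edgeR, and 137 (0.931%) had an unadjusted p under 0.05. This fit and the intervals below leave the libraries unpaired, though same-numbered libraries of these groups deviated together. With a replicate block in edgeR, 0 genes passed and 257 had an unadjusted p under 0.05. DESeq2 and voom likewise gave 0. Intervals of the guide difference were -0.37 to 0.20 for HBE1, -0.19 to 0.59 for JUND, -0.20 to 0.98 for ID3, -0.70 to 0.45 for OAS3 and -0.14 to 0.50 for ALAS2 (CR4 minus CR10, log2, 95%). These do not show that the guides act alike, since differences within them would not have been detected. The 5 smallest p-values belonged to FAM138B, SNTN, TBC1D3B, TPD52 and HSD17B13, none with an adjusted p under 0.05. HBE1 in particular was at 329 to 402 CPM with CR4 and 332 to 425 CPM with CR10.

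The guideless dCas9-KRAB cells were compared with the dCas9 cells. No gene differed between the 6 dCas9 libraries and the 3 KRAB_no_gRNA libraries in edgeR, DESeq2 or voom, and 99 (0.673%) had an unadjusted p under 0.05. This does not show that dCas9 and KRAB_no_gRNA cells are alike, since differences within the intervals below would not have been detected. KRAB_no_gRNA cells were not tested against untransduced cells here, so whether the differences above are shared was not tested. JUND was at 143, 141 and 134 CPM in KRAB_no_gRNA cells, ID3 at 6.89, 8.06 and 5.61 CPM, OAS3 at 3.89, 3.42 and 5.22 CPM, and TAP1 at 16.7, 21 and 14.5 CPM, each within or near the dCas9 range and outside that of untransduced cells. The log2 difference of dCas9 from KRAB_no_gRNA was -0.10 (95% interval -0.44 to 0.23) for JUND, 0.03 (-0.49 to 0.54) for ID3 and -0.02 (-0.52 to 0.48) for OAS3. ALAS2 had the smallest p. It was at 24.9, 26.9 and 21.7 CPM in KRAB_no_gRNA cells, below all dCas9 libraries, which in turn lay below the untransduced ones (log2 difference 0.49, 95% interval 0.21 to 0.78), and did not pass. The next smallest p-values belonged to KRIT1, FANK1, LCLAT1 and PGF. EGR1 was at 67.4, 81.9 and 75 CPM in KRAB_no_gRNA cells, below all dCas9 libraries and overlapping the untransduced ones (log2 difference of dCas9 from KRAB_no_gRNA 0.75, 95% interval 0.14 to 1.37). PCSK1N was at 1.05, 1.22 and 0.614 CPM there, above all dCas9 libraries, which lay at 0.169 to 0.558 CPM (-1.30, -2.22 to -0.39). RHCE (0.36, 0.05 to 0.67), RHD (0.38, 0.10 to 0.67) and DMTN (0.41, 0.03 to 0.79) gave intervals above 0, with lower means in KRAB_no_gRNA cells. None of these passed over all genes tested.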

How the data were processed

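RNA-seq was deposited for 18 K562 libraries, and the 9 described here are 2 dCas9 groups and 1 untransduced group of 3. The authors deposited whole-number counts per transcript, unnormalized, 1 file per library. Per the submitters' processing notes the tools were Bowtie2, SAMtools, Picard, R 3.1.2 and DESeq with build hg19, and the counting tool is not given in the sources used here. Every count was even, so a fragment is taken as 2 counts. Per the labels' protocols RNA was selected on oligo-dT beads and tagged with Nextera, which does not mark strand, so a gene and an overlapping antisense gene cannot be told apart. Accessions were summed per gene: of 40709 lines, 39324 matched RefSeq names of GRCh38.p14, 526 a GENCODE table and 859 (0.970% of counts) neither.

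All 18 libraries entered 1 edgeR 4.0.16 quasi-likelihood fit of 6 group means (filterByExpr, TMM, 12 residual degrees of freedom, R 4.3.3), with Benjamini-Hochberg adjustment over 14720 genes holding 99.97% of counts. The biological coefficient of variation was 21.6%. Same-numbered dCas9_CR4 and dCas9_CR10 libraries deviated together, but same-numbered dCas9 and untransduced libraries did not, so no replicate block was used. On data simulated for this comparison (14564 genes), the fit recovered 34.3% of 1.5-fold, 56.7% of 2-fold and 93.9% of 4-fold changes, with 10 false calls of 133. The simulated libraries were independent and had the same spread per gene in all groups. The real dCas9 libraries deviated together and untransduced library 2 stood apart, so these rates do not carry over to the real data. Alternatives were DESeq2 1.42.0, limma 3.58.1 voom, other scalings, filters and library selections.

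Genes named are the 15 largest rises and falls that passed without overlap at a mean of 1 CPM or more, up to 6 passing members per list (or 3 by level where none passed), the globins, and the 5 smallest p-values of the other comparisons. Other list members, such as ID1, ISG15, B2M, GYPC, GYPE, CA1, KLF1, HBD, TFRC and TRIM28, and ARGLU1 and COMTD1, were named after their values were seen. The comparison and the 35 gene lists were chosen with earlier results of these data known. Intervals are 95%. Some genes are not reported here.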

Additional observations from a re-analysis of the deposited data

How the results depend on the processing

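The count of 1704 genes for dCas9 against untransduced cells was 2560 in DESeq2, 6 when only the compared groups were fitted, 3191 with the replicate block and 3338 without the lentiviral libraries numbered 3. The same settings gave 1592, 0, 2066 and 1491 genes for dCas9_CR4 alone (624), and 1350, 0, 1757 and 1422 for dCas9_CR10 alone (512). Leaving out 1 library at a time gave 158 (without no_lentivirus library 2) to 2802 (without no_lentivirus library 1) genes for both guides together, 5 (without no_lentivirus library 3) to 2084 for dCas9_CR4 and 42 (without no_lentivirus library 3) to 1445 for dCas9_CR10, the highest both without no_lentivirus library 1. For dCas9_CR4 it was also 11 without no_lentivirus library 2, 10, 20 and 232 without dCas9_CR4 library 1, 2 or 3, and for dCas9_CR10 70 without no_lentivirus library 2 and 144 and 136 without dCas9_CR10 library 1 or 2. With fewer libraries the test has less power, yet leaving out some libraries gave more genes than the full fit. The cause of these changes was not tested.

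For the replicate block, same-numbered dCas9_CR4 and dCas9_CR10 libraries deviated together (r = 0.74, 0.38 and 0.85 over 10853 genes), but same-numbered dCas9 and untransduced libraries did not (r = 0.21, -0.39 and -0.34 for CR4 and 0.42, -0.41 and -0.5 for CR10), so the numbers pair the former only.

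Other scalings, filters, halved counts and voom gave 1543 to 1792 genes, and a GC-centred fit, added after seeing the data because higher genes had a median GC share of 53.5% and lower genes 48.4% (49.9% over all), gave 1809. Of 143 named genes that passed, 0 reversed in any setting, 143 passed in DESeq2, 134 in the GC-centred fit, 123 in voom, 36 without no_lentivirus library 2, 111 without it and the lentiviral libraries numbered 3 (also added after seeing the data), and 4 in the 9 libraries alone. These settings share most libraries with the fit that chose the named genes, so a kept direction is no test. The comparisons of dCas9_CR4 with dCas9_CR10 and of dCas9 with KRAB_no_gRNA gave 0 genes in every setting run. At this depth, genes such as PCSK1N and FANK1 with 20 counts or fewer per library carry wide errors.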
